A study of Mus musculus with 8 samples.

Results

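Cirbp, Rbm3 and Rbm14 are genes for RNA-binding proteins, chosen by name from a table of gene levels in the occipital cortex of mice. All 3 had 1 row each among the 24344 gene symbols of the table, and all 3 were among the 12377 genes tested. The libraries came from cortex homogenates of C57BL/6J mice at postnatal day 35, 4 from mice kept without food for 48 h and 4 from mice fed ad libitum, with no other treatment or allele in the labels. Levels are in FPKM, by definition fragments counted per kilobase of a gene's transcripts and scaled to the fragments mapped in the library. Levels of different genes may thus be compared per length. Which scaling the authors applied is not named in the sources used here. Body temperature, protein and splice forms were not among the measurements analysed here.

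Cirbp and Rbm3 each hold a single RNA recognition motif followed by a tail rich in glycine and arginine, and are the best known cold-inducible RNA-binding proteins of mammals. Mild cooling raises both, and heat lowers Cirbp. Rbm3 is known in the mouse brain for keeping synapses during cooling, and Cirbp for its daily rhythm with body temperature and its binding of clock gene mRNA. Rbm14, also called CoAA, is a coactivator of transcription and a protein of paraspeckles, nuclear bodies built on the long non-coding RNA Neat1, and is not known as a cold-induced gene.

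In annotation GENCODE M21 of build GRCm38, the assembly called mm10, Cirbp lies on the plus strand of chromosome 10 at 80165985 to 80172786 and has 7 annotated transcripts, 2 of them protein-coding. Rbm3 lies on the minus strand of the X chromosome at 8138975 to 8145880, with 11 transcripts, 6 of them protein-coding. Rbm14 lies on the minus strand of chromosome 19 at 4800569 to 4811634, with 3 transcripts, all protein-coding. Cirbp also has 4 transcripts with a retained intron and 1 marked for nonsense-mediated decay, and Rbm3 has 2 of each kind, which a single value per gene does not separate.

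The RefSeq promoter table of build GRCm38.p6 held 2 of the 3 genes, Cirbp and Rbm14. The 250 bases before a start of each are shown because Cirbp is known to respond to mild cold through the element TCCCCGCC, which binds Sp1. Capitals mark that element and CCAAT boxes on either strand, and positions count back from -1, the base before the start.
Cirbp, chr10:80167589-80167838, plus strand: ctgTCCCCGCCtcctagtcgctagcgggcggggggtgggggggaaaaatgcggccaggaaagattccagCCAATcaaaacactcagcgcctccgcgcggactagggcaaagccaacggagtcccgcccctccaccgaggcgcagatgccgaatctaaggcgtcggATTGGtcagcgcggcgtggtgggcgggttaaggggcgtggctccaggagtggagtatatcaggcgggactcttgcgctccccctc
Rbm14, chr19:4811635-4811884, minus strand: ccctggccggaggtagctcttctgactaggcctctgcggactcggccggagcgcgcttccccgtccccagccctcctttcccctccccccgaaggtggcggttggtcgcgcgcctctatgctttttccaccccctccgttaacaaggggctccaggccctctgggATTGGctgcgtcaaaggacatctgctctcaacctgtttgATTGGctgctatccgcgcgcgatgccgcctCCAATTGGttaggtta

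Searched on both strands, TCCCCGCC occurred 1 time before this start of Cirbp, at -247, and 0 times before that of Rbm14. It was found in 4.64% of the 32851 promoters of the table. This window of Cirbp was 65.6% G and C and that of Rbm14 63.2%, against a median of 52.4% over all promoters. The shares of promoters given here were not matched for G and C. The Sp1 box GGGCGG occurred 3 times for Cirbp, without overlap with TCCCCGCC, and 0 times for Rbm14, against 32.7% of promoters with at least 1. CCAAT occurred 2 times for Cirbp and 4 times for Rbm14, the last 2 of which overlap, and in 33.8% of promoters. The E-box CACGTG (6.02% of promoters), the cyclic AMP element TGACGTCA (1.55%), the heat shock core TTCNNGAA (7.17%) and the glucocorticoid response element (0.387%) had 0 matches in both windows. A later start of Cirbp, with the window at 80167921 to 80168170, held GGGCGG 4 times and none of the other motifs. These are counts of letters in a window of 250 bases and not of bound sites.

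The libraries were of similar depth by an estimate, at about 16600000 to 21900000 fragments each. It took the densest low values of 5547 genes with a single transcript to stand for single fragments. Those values held 54 to 84 of the genes in a library. The estimate also took FPKM as scaled to the fragments mapped, and neither assumption was tested. FPKM totals were 255500 to 281900 in fasted libraries and 253500 to 360000 in ad libitum libraries. Xist and Y-linked transcripts parted the libraries by odd and even replicate number, and ad libitum replicate 3 held both, with Xist at 32.2 FPKM and the Y-linked gene Ddx3y at 5.67 FPKM. The labels give no sex. The changes and ratios of Rbm3, Cirbp and Rbm14 are therefore also given without this library, and for the lists where its omission ended a call or moved a count by over 1.5 times. Markers of excitatory neurons summed to 469.9 to 540.8 FPKM in fasted and 462.7 to 552.4 FPKM in ad libitum libraries, with 3 of 4 of these markers lower in fasted cortex. The defining markers of cortical neurons were thus present, while those of choroid plexus summed to 1.36 to 3.18 FPKM in fasted and 0.778 to 1.54 FPKM in ad libitum libraries.

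The comparison asks how transcript levels in occipital cortex of fasted mice differ from those of mice fed ad libitum. Rbm3 and Cirbp were both higher in fasted cortex, by nearly the same factor, and Rbm14 was lower. The fold of the group means was 1.99 for Rbm3, 1.94 for Cirbp and 0.760 for Rbm14. In each case every fasted library lay on one side of every ad libitum library. With limma, which fits all tested genes together, all 3 passed at a Benjamini-Hochberg adjusted p under 0.05. Of all tested genes 25.8% passed in either direction, 9.56% higher and 16.3% lower in fasted cortex, and 27.6% did not overlap between the groups.

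Rbm3 stood at 117.4, 104.4, 112.2 and 106.0 FPKM in fasted replicates 1 to 4, and at 57.5, 57.0, 58.1 and 48.1 FPKM in ad libitum replicates 1 to 4. All fasted libraries were above 100 FPKM and all ad libitum libraries under 60 FPKM, with ad libitum replicate 4 lowest. The means were 110.0 FPKM ± 5.94 in fasted and 55.2 FPKM ± 4.72 in ad libitum cortex (SD, n = 4 each). The log2 change was 0.98 with SE 0.0698 and a 95% interval of 0.83 to 1.14 on the scale of log2(FPKM + 1) (limma adjusted p = 1.85e-05). On this scale Rbm3 ranked 19th for the size of its rise among the tested genes, and it ranked 9th by p. By the fold of the group means, 56 tested genes were higher by at least 1.9 fold.

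Cirbp stood at 75.4, 77.3, 72.9 and 63.4 FPKM in fasted replicates 1 to 4, and at 39.1, 41.1, 37.95 and 30.6 FPKM in ad libitum replicates 1 to 4. Replicate 4 was lowest in both groups, and even so the lowest fasted library exceeded the highest ad libitum library by more than the whole ad libitum range. The means were 72.2 FPKM ± 6.16 in fasted and 37.2 FPKM ± 4.59 in ad libitum cortex (SD, n = 4 each). The log2 change was 0.94 with SE 0.0915 and a 95% interval of 0.74 to 1.14 (limma adjusted p = 1.00e-04). Cirbp ranked 23rd for the size of its rise on the scale of log2(FPKM + 1).

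Rbm14 stood at 5.02, 5.42, 5.62 and 5.36 FPKM in fasted replicates 1 to 4, and at 7.20, 7.36, 6.70 and 6.92 FPKM in ad libitum replicates 1 to 4. The highest fasted library lay below the lowest ad libitum library, and no library stood far from its group. The means were 5.36 FPKM ± 0.249 in fasted and 7.04 FPKM ± 0.295 in ad libitum cortex (SD, n = 4 each). The log2 change was -0.34 with SE 0.0553 and a 95% interval of -0.46 to -0.22 (limma adjusted p = 0.00158). With equal-sum scaling over all rows the call ended (log2 change -0.23, limma adjusted p = 0.127). On the scale of log2(FPKM + 1) the fall of Rbm14 ranked 796th in size. That was far nearer to the bulk of the genes than the rises of Rbm3 and Cirbp. Of the tested genes, 1 in 10 had a log2 change under -0.29.

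**Figure D1:**
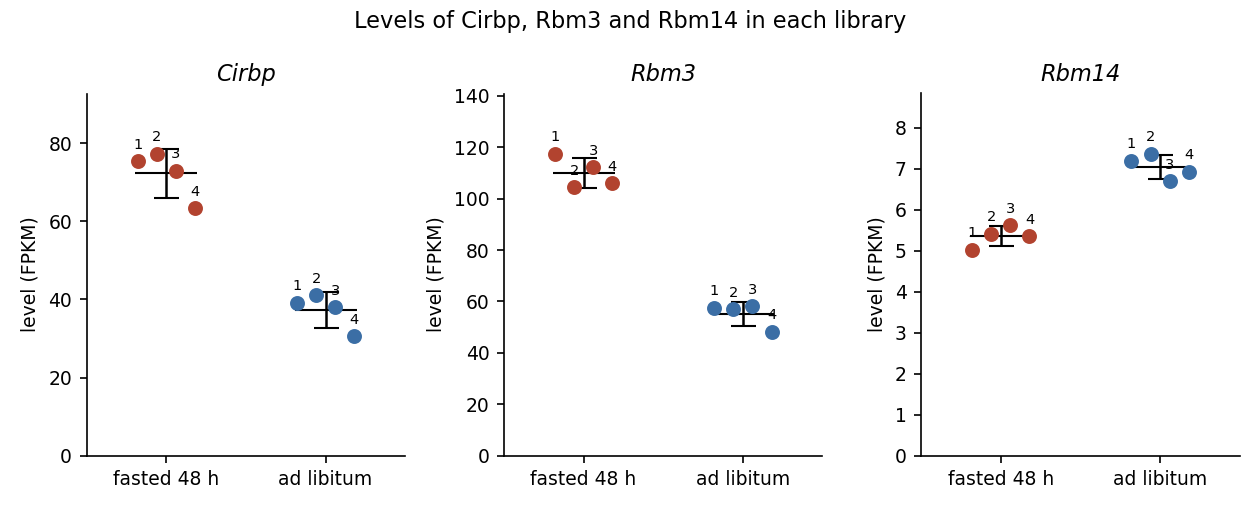
Level in FPKM (vertical axis, starting at 0) of each gene in the 4 fasted libraries (left, red) and the 4 ad libitum libraries (right, blue), numbered by replicate, with the group mean and SD in black. Fasted libraries lie between 63.4 and 77.3 FPKM for Cirbp and above 100 FPKM for Rbm3, higher than every ad libitum library, while for Rbm14 they lie between 5.02 and 5.62 FPKM, lower than every ad libitum library.

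**Figure D2:**
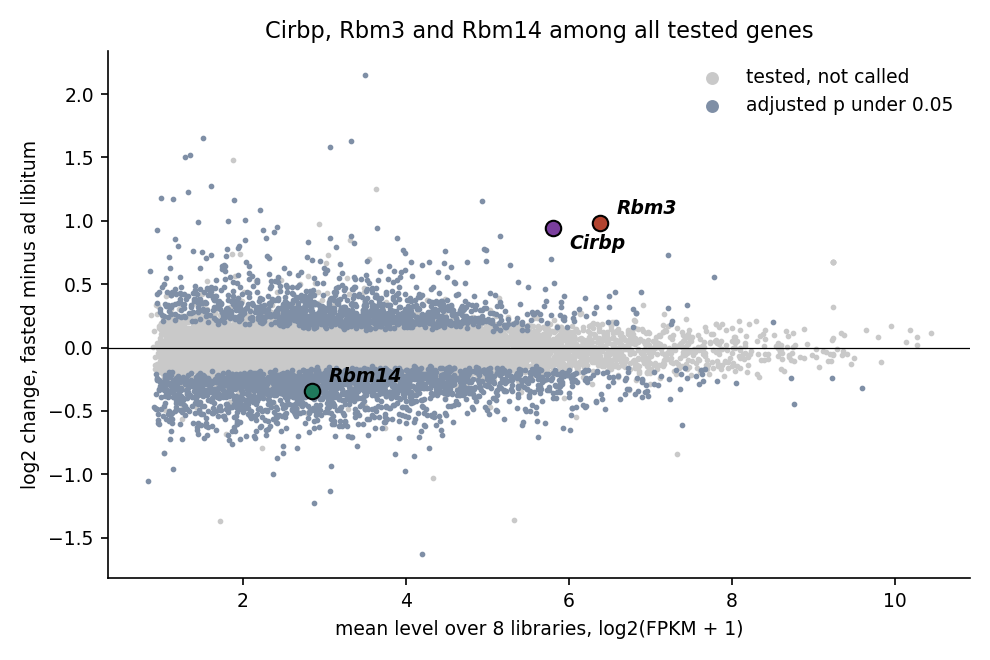
Log2 change, fasted minus ad libitum (vertical axis), against the mean level as log2(FPKM + 1) (horizontal axis) for the 12377 tested genes, with genes at adjusted p under 0.05 darker. Rbm3 at 0.98 and Cirbp at 0.94 stand apart from most genes of similar level, and Rbm14 at -0.34 lies within the band of lower genes.

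The differences also held within each replicate number. From number 1 to number 4 the fasted library stood at 2.04, 1.83, 1.93 and 2.20 times the ad libitum library for Rbm3. The factors for Cirbp were 1.93, 1.88, 1.92 and 2.07, and those for Rbm14 were 0.698, 0.736, 0.840 and 0.774. The direction was the same in 4 of 4 pairs for each gene (exact two-sided sign-flip test, with the lowest p available from 4 pairs, which is above 0.05). Rbm3 is X-linked, and it was compared apart in odd and even numbers. Its means were 114.8 FPKM in fasted and 57.8 FPKM in ad libitum libraries of odd numbers, and 105.2 FPKM in fasted and 52.6 FPKM in ad libitum libraries of even numbers, log2 changes of 0.98 and 0.99. Without ad libitum replicate 3 the log2 changes were 1.01 for Rbm3, 0.96 for Cirbp and -0.36 for Rbm14 (limma adjusted p = 1.57e-04, 6.88e-04 and 0.00477).

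The order of the levels was Rbm3, Cirbp and Rbm14 in all 8 libraries. Rbm3 exceeded Cirbp by a ratio of 1.53 ± 0.132 in fasted and 1.49 ± 0.0817 in ad libitum cortex (SD, n = 4 each). The groups overlapped in this ratio. Its log2 difference was 0.04 with a 95% interval of -0.21 to 0.27, from inverting the exact two-sided permutation test (p = 0.629, also adjusted over the 3 pairs of genes). A change of the ratio larger than that interval was thus not seen, and smaller ones remain possible. The ratio of Cirbp to Rbm14 was 13.5 ± 1.404 in fasted and 5.28 ± 0.579 in ad libitum cortex, and that of Rbm3 to Rbm14 was 20.6 ± 1.87 in fasted and 7.84 ± 0.711 in ad libitum cortex (SD, n = 4 each). Their log2 differences were 1.28 and 1.32, each with exact permutation p = 0.0286, the smallest that 70 assignments can give, and adjusted p = 0.0429 over the 3 pairs. Exact tests within pairs or within odd and even numbers cannot reach the threshold even before this adjustment, and gave adjusted p = 0.188 and 0.0833. Without ad libitum replicate 3 the log2 differences were 0.0552 for Rbm3 to Cirbp, 1.32 for Cirbp to Rbm14 and 1.37 for Rbm3 to Rbm14.

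None of the protein-coding genes nearest to each locus passed the test. The nearest protein-coding neighbours of Cirbp, Midn and 1600002K03Rik, had log2 changes of 0.27 and -0.28 and did not pass (limma adjusted p = 0.398 and 0.355), with overlapping groups. The second of them begins 157 bases after the end of Cirbp. The neighbours of Rbm3, Wdr13 and Tbc1d25, were at -0.03 and -0.13 (limma adjusted p = 0.733 and 0.254). Rbm3 overlaps the antisense gene Rbm3os, which stood at 0.636 FPKM ± 0.263 in fasted and 0.393 FPKM ± 0.202 in ad libitum cortex (SD, n = 4 each) and was too low to be tested. No source used here says whether the libraries keep strand, so that reads of Rbm3 and Rbm3os over the shared bases cannot be told apart.

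Beside Rbm14 on chromosome 19 lie Rbm4 and, further on, Rbm4b, genes for related splicing regulators. Rbm4 averaged 4.85 FPKM ± 0.450 in fasted and 5.54 FPKM ± 0.219 in ad libitum cortex (SD, n = 4 each) and did not pass (log2 change -0.17, limma adjusted p = 0.0875). Rbm4b averaged 6.13 FPKM ± 0.409 in fasted and 7.71 FPKM ± 0.362 in ad libitum cortex (SD, n = 4 each) and fell (log2 change -0.29, limma adjusted p = 0.00535). The gene on the other side, Ccs, which encodes the copper chaperone of superoxide dismutase, was at -0.00 (-0.00488, limma adjusted p = 0.969). Rbm14 shares bases with the antisense gene Gm21844 and with Gm21992, which spans the cluster and was listed at 0.320 FPKM or less in every library, so that how the authors' counting split shared reads could affect its level.

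Near-identical copies bear on the level of Rbm3 in particular. Coding transcripts of Rbm3 aligned over 465 bases to the pseudogenes Rbm3-ps, Gm10156 and Gm13624 at 99.4%, 98.5% and 96.1% identity, and over 380 bases to a transcript of Phospho2 at 97.4%. The level of Rbm3 is therefore uncertain where the authors' counting split or dropped such reads. Phospho2, chosen after its values were seen, stood at 8.11 FPKM in fasted and 8.21 FPKM in ad libitum cortex and did not pass (limma adjusted p = 0.921). Rbm3 and Cirbp themselves matched at 72.3% over 260 bases.

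Among the numbered Rbm genes, which share the RNA recognition motif and little else, Rbm3 stood apart in change and, in fasted cortex only, in level. It had the highest mean of the 30 tested in both groups, followed by Rbm39 at 54.2 FPKM in fasted and 53.5 FPKM in ad libitum cortex. Ad libitum libraries of these genes overlapped, and in replicate 4 Rbm39 was higher, at 52.35 FPKM against 48.15 FPKM for Rbm3. The log2 change of 0.98 for Rbm3 was followed by that of Rbm33 at 0.33. Apart from Rbm3 and Rbm14, 4 of 28 genes rose and 7 fell, against 9.56% and 16.3% of all tested genes. The median log2 change of the 28 was 0.01, against -0.02 over all tested genes. The nucleolar protein gene Rbm28 fell most, to 5.98 FPKM in fasted against 9.43 FPKM in ad libitum cortex (log2 change -0.58, limma adjusted p = 7.42e-05). The X-linked splicing regulator gene Rbm10 fell by 0.36 on the log2 scale, and Rbm33 was at 13.4 FPKM in fasted and 10.4 FPKM in ad libitum cortex. The count of rises was 7 with the replicate number as a block and with median-ratio or quantile scaling, 2 with a filter at 5 FPKM or with either fasted replicate 3 or ad libitum replicate 2 left out, and 1 with ad libitum replicate 1 left out. The count of falls was 4 with ad libitum replicate 3 left out and 1 with equal-sum scaling over all rows.

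**Figure D3:**
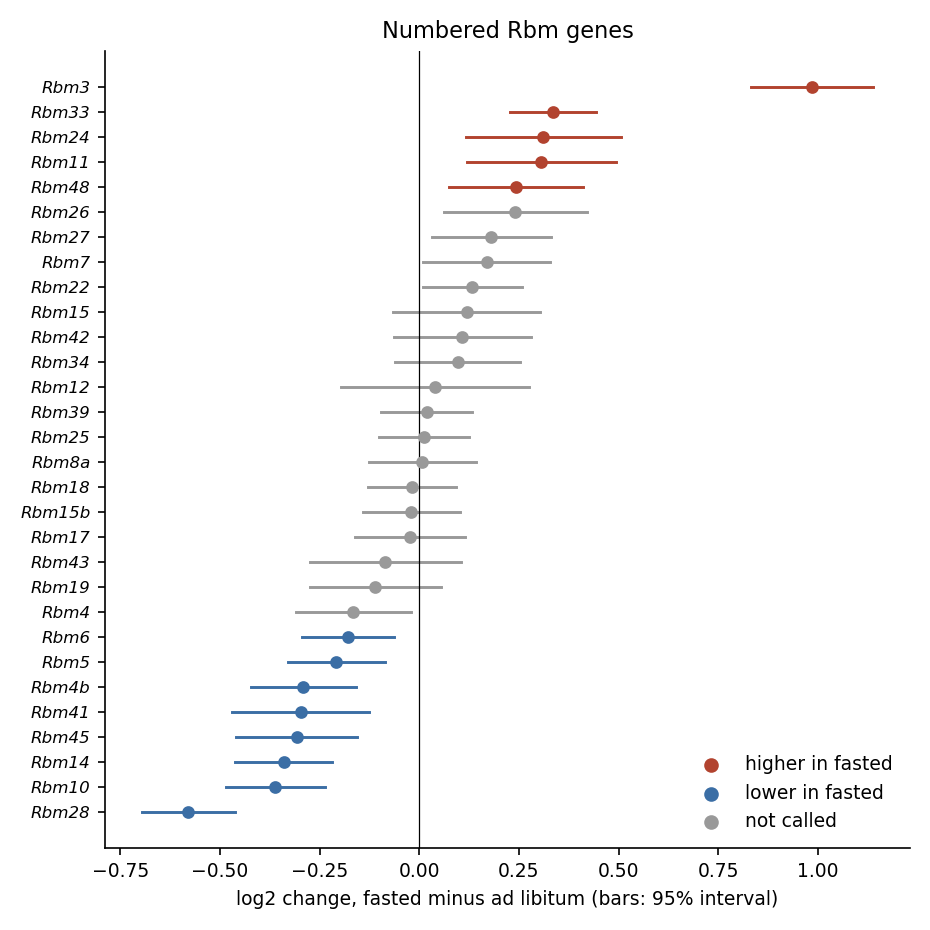
Log2 change, fasted minus ad libitum (horizontal axis), of the 30 tested numbered Rbm genes (vertical axis, ordered by change), as points with 95% intervals, coloured by call. Rbm3 at 0.98 lies well to the right of Rbm33 at 0.33, and Rbm14 at -0.34 lies between Rbm10 and Rbm45 near the lower end.

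The cold shock domain proteins share a name with bacterial cold shock but have another fold. Of 6 tested genes 1 rose and 1 fell (9.56% and 16.3% of all tested genes), with a median log2 change of -0.05. Carhsp1, which encodes a small protein that binds mRNA, averaged 10.1 FPKM in fasted and 8.08 FPKM in ad libitum cortex (log2 change 0.30, limma adjusted p = 0.0195, and 0.0598 without fasted replicate 3). Ybx1, which encodes the Y-box protein of translation control, averaged 41.4 FPKM in fasted and 48.9 FPKM in ad libitum cortex (log2 change -0.23, limma adjusted p = 0.0196, and 0.0501 to 0.0613 without fasted replicate 2 or 3 or ad libitum replicate 1 or 3). Falls in this list came to 2 with the block, without moderation by trend and without ad libitum replicate 2.

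Among RNA recognition motif proteins with a glycine-rich tail, 1 of 8 rose and 2 fell (9.56% and 16.3% of all tested genes). The median log2 change of the list was 0.01. Hnrnpa2b1 averaged 107.6 FPKM in fasted and 140.4 FPKM in ad libitum cortex (log2 change -0.38, limma adjusted p = 0.00146), and Hnrnpa1 averaged 21.2 FPKM in fasted and 27.6 FPKM in ad libitum cortex (log2 change -0.37). Both encode abundant nuclear proteins that bind pre-mRNA, and with equal-sum scaling over all rows 0 genes of the list fell (limma adjusted p = 0.0642 for Hnrnpa2b1 and 0.0905 for Hnrnpa1). Hnrnpa0 was at 30.3 FPKM in fasted and 26.8 FPKM in ad libitum cortex (log2 change 0.17, limma adjusted p = 0.0411), and this call ended in 10 of 18 alternatives, 7 of which left out a single library, any but fasted replicate 3, with adjusted p from 0.0520 to 0.103.

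Genes reported elsewhere to act on Cirbp or Rbm3 comprised 12 tested, of which 3 fell and 0 rose (limma). The shares of all tested genes were 16.3% and 9.56%, and the list had a median log2 change of -0.09. At an unadjusted p under 0.05 there was 1 rise, that of Tnpo1, the import receptor of Cirbp, at 0.15. Hsf1, the master regulator of the heat shock response, averaged 6.64 FPKM in fasted and 10.8 FPKM in ad libitum cortex (log2 change -0.62, limma adjusted p = 1.03e-04). Hnrnph1, which in human neurons is reported to control a poison exon of RBM3, averaged 59.7 FPKM in fasted and 79.2 FPKM in ad libitum cortex (log2 change -0.41, limma adjusted p = 0.00126). Plcg1, which acts below the receptor of brain-derived neurotrophic factor in a pathway reported to raise Rbm3 in mice, was at -0.21. The receptor gene Ntrk2 was at 84.2 FPKM in fasted and 82.5 FPKM in ad libitum cortex, Sp1 was at 3.76 FPKM in fasted and 4.14 FPKM in ad libitum cortex, and neither passed (limma adjusted p = 0.686 and 0.207). Without ad libitum replicate 4, 1 gene of this list rose.

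Of 20 heat shock genes 12 fell and 0 rose (limma), against 16.3% and 9.56% of all tested genes. The list had a median log2 change of -0.24, and at an unadjusted p under 0.05 Bag3 was higher, at 0.15. Hsph1 averaged 49.5 FPKM in fasted and 78.1 FPKM in ad libitum cortex (log2 change -0.65, limma adjusted p = 7.42e-05), and Chordc1 averaged 12.6 FPKM in fasted and 21.1 FPKM in ad libitum cortex (log2 change -0.70). Both encode cochaperones of the cytosol, and Hspa4, an exchange factor of Hsp70, was at -0.34. With equal-sum scaling over all rows the list had 3 falls. The most inducible genes Hspa1a and Hspa1b, near-identical copies of each other, were at 2.64 and 1.78 FPKM in fasted and 2.68 and 1.82 FPKM in ad libitum cortex and did not pass (limma adjusted p = 0.885 and 0.863).

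RNAs and receptors reported as partners of Cirbp or Rbm3 included clock genes. Of 12 tested genes 3 rose and 1 fell (9.56% and 16.3% of all tested genes), with a median log2 change of 0.10. The clock repressor gene Cry1 averaged 7.94 FPKM in fasted and 4.54 FPKM in ad libitum cortex (log2 change 0.69, limma adjusted p = 1.31e-04), and Per2 averaged 10.9 FPKM in fasted and 7.60 FPKM in ad libitum cortex (log2 change 0.48). Per1 was at 0.77 (limma adjusted p = 0.017), a call that ended in 4 alternatives (adjusted p 0.0555 to 0.0801), both equal-sum scalings and the omission of fasted replicate 4 or ad libitum replicate 2. Clock, whose mRNA is bound by Cirbp, was at 9.46 FPKM in fasted and 9.80 FPKM in ad libitum cortex, and Rtn3, whose translation Rbm3 is known to raise in mouse brain, was at 385.2 FPKM in fasted and 387.6 FPKM in ad libitum cortex. Neither passed (limma adjusted p = 0.667 and 0.919). The single fall was that of Dbp, a clock output gene (log2 change -0.27, limma adjusted p = 0.0358). The list had 0 falls in 7 alternatives, among them the omission of fasted replicate 1, 3 or 4 or ad libitum replicate 1 or 2, and 2 with the block or without ad libitum replicate 4. Tlr4, Ly96 and Trem1, receptor genes for Cirbp outside cells, were too low to be tested.

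Paraspeckle and FET protein genes, the surroundings of Rbm14 in the nucleus, numbered 13, of which 6 fell and 0 rose (limma). The shares of all tested genes were 16.3% and 9.56%. At an unadjusted p under 0.05 also 0 of the list were higher, and its median log2 change was -0.16. Hnrnph3 averaged 12.7 FPKM in fasted and 17.4 FPKM in ad libitum cortex (log2 change -0.42, limma adjusted p = 3.19e-04). The FET gene Taf15 was at -0.32 and the paraspeckle core gene Sfpq at -0.40. Neat1, the scaffold RNA, averaged 11.1 FPKM in fasted and 13.1 FPKM in ad libitum cortex and did not pass (limma adjusted p = 0.0722). With equal-sum scaling over all rows 2 genes fell, 4 did without ad libitum replicate 2, and with median-ratio or quantile scaling or the block 1 rose. Of the temperature-sensitive TRP channel genes 5 of 11 were tested and 0 passed in either direction (limma), against 25.8% of all tested genes. At an unadjusted p under 0.05 there were also 0, with Trpc5 at -0.27 and Trpm3 at 0.16 (limma adjusted p = 0.135 and 0.179). Trpc5 passed without ad libitum replicate 1, and Trpm3 without ad libitum replicate 4.

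**Figure D4:**
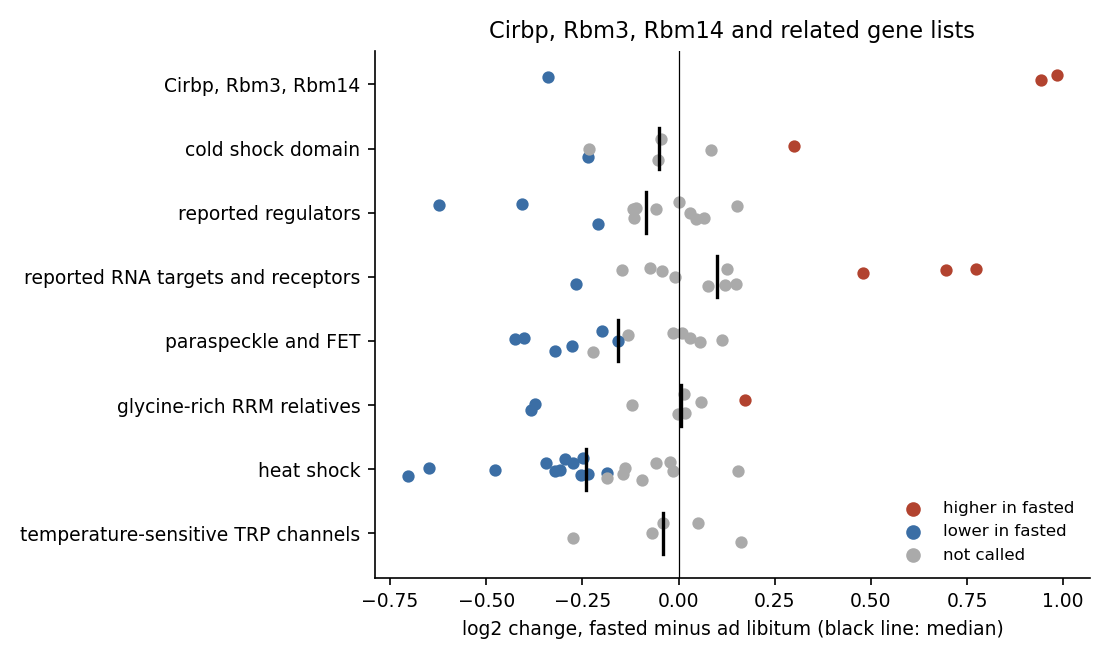
Log2 change, fasted minus ad libitum (horizontal axis), of Cirbp, Rbm3 and Rbm14 and of each tested gene in 7 related lists (rows), coloured by call, with the median of each list as a black line. Rbm3 and Cirbp lie to the right of every other gene shown, the nearest being Per1 at 0.77, and the heat shock genes lie mostly to the left of 0.

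The genes of most similar profile were found from the root mean square difference of log2(FPKM + 1), centred on each gene's mean, over the 8 libraries. For Rbm3 the nearest was AI854517 at 0.0741, followed by Cirbp at 0.0927, Tsc22d3 at 0.0933, Pnpla2 at 0.105 and Galnt16 at 0.116. For Cirbp the nearest by this measure was Acr at 0.0831, a low gene with 1.89 FPKM ± 0.347 in fasted and 0.611 FPKM ± 0.283 in ad libitum cortex (SD, n = 4 each). Acr was tested only through its fasted libraries and failed the filter on low values when any of them was left out. Its place thus rests on the filter, and also on a scale that understates the change of low genes. Its log2 change was 0.86 as reported and ran from 0.72 to 1.59 over the settings that tested it. That of Cirbp ran from 0.85 to 1.07. Acr was followed by Rbm3 at 0.0927 and Itih3 at 0.105, and AI854517 at 0.120 was also among the nearest 5. AI854517 averaged 15.5 FPKM ± 0.294 in fasted and 7.57 FPKM ± 0.591 in ad libitum cortex (SD, n = 4 each). For Rbm14 the nearest of all tested genes was Rbm4b at 0.0358, from the same cluster on chromosome 19, and A430046D13Rik at 0.0418, Enox2 at 0.0428 and Galnt14 at 0.0450 were also among the nearest 5.

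Other measures moved with the groups. The summed level of 4 microglial markers was 31.1 to 34.4 FPKM in fasted and 42.1 to 51.6 FPKM in ad libitum libraries, with 3 of 4 markers lower, and that of 4 astrocyte markers was 188.3 to 207.3 FPKM in fasted and 209.6 to 229.8 FPKM in ad libitum libraries, with 2 of 4 lower. None of these markers was at 0. In homogenates fewer cells of a type and less RNA per cell cannot be told apart, and the part of these shifts in the levels of Rbm3, Cirbp and Rbm14 was not tested. After median-ratio scaling between libraries Rbm3 averaged 111.0 FPKM ± 3.82 in fasted and 54.6 FPKM ± 3.20 in ad libitum cortex, and Cirbp 72.9 FPKM ± 5.33 in fasted and 36.8 FPKM ± 3.33 in ad libitum cortex (SD, n = 4 each). Rbm14 then averaged 5.41 FPKM ± 0.334 in fasted and 6.98 FPKM ± 0.252 in ad libitum cortex (SD, n = 4 each). Each group held libraries with and without Y-linked transcripts, and so RNA of more than a single animal. No label says that every library came from a separate animal, so that the p-values may in part measure a technical spread.

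**Figure D5:**
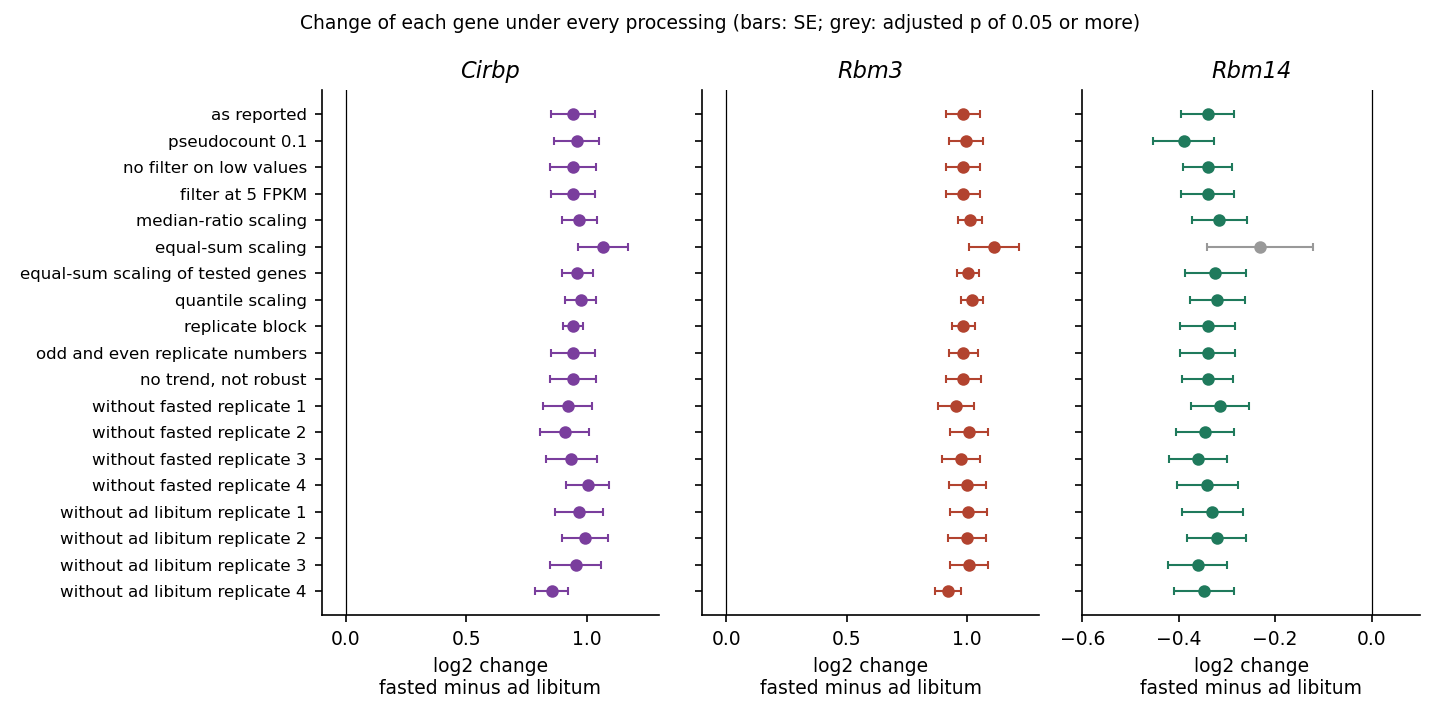
Log2 change, fasted minus ad libitum (horizontal axes, on different ranges), of each gene under the reported processing and 18 alternatives (rows), with SE bars. Rbm3 keeps between 0.92 and 1.11 and Cirbp between 0.85 and 1.07 in every row, and Rbm14 keeps between -0.39 and -0.23, with adjusted p above 0.05 (grey) only for equal-sum scaling over all rows.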

How the data were processed

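The authors deposited FPKM in 1 table with 1 column per library. The submitters' processing notes name TopHat and build mm10. For the quantifier, annotation, strandedness and scaling the sources used here name nothing. Where a symbol had several rows, the row of highest mean was used. Testing took genes reaching 1 FPKM in 4 or more libraries. The test was that of limma (version 3.58.1, run under R version 4.3.3) for log2(FPKM + 1), with group as the only term, a trend in the mean and robust moderation. A call is a Benjamini-Hochberg adjusted p under 0.05 over all tested genes. This scale understates the change of low genes. Steps were tested on simulated data. Ratios of genes within a library were compared by exact permutation over 70 assignments. Transcripts were aligned with blastn, and figures and tables made with Python 3.11.15, pandas 2.3.3 and matplotlib 3.10.9.

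The genes described and the lists were chosen with earlier results of these data known. From each list up to 3 called genes of smallest p are named, or 2 where none was called, and for each of Cirbp, Rbm3 and Rbm14 the 5 genes of nearest profile, of which some are not reported here. Neighbours, pseudogene matches and a few further list genes were named after values were seen. Groups come from the titles, and fasted and ad libitum libraries share replicate numbers. Same-numbered libraries deviated together from their group means (correlations across 12377 genes of 0.574, 0.496, 0.382 and 0.523), and less over 11155 autosomal protein-coding genes (0.335, 0.193, 0.0761 and 0.371). The reported test did not use the numbers as pairs. They were used so in the comparison within numbers and in the replicate block, and no label says what they mark. Alternatives were another pseudocount, filter, scaling or moderation, the replicate block, a term for odd and even numbers, and each library left out. FPKM give no count, so depth is an estimate and no counting interval is given.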

Additional observations from a re-analysis of the deposited data

Results flagged for a closer look

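Among 92 groups of 4 values searched, 7 had a library whose gap to the nearest other was a larger share of the group's range than Dixon's 95% critical value for 4 values, which chance exceeds in about 1 of 20 groups. Rbm3 was lowest in ad libitum replicate 4, at 48.15 FPKM, with a gap of 0.885 of the range. This library had the lowest median-ratio factor of the 8, 0.960, and after that scaling Rbm3 stood there at 50.1 FPKM with a gap of 0.592, under the bound. Without it the log2 change of Rbm3 was 0.92. The ratio of Rbm3 to Rbm14 was highest in 1 fasted library, at 23.37, which was fasted replicate 1. The others were a high Wdr13 in fasted cortex (45.04 FPKM), a low Hsph1 in fasted cortex (44.69 FPKM), a low Carhsp1 (6.665 FPKM) and a low Hnrnpa0 (24.85 FPKM) in ad libitum cortex, and a high Sfpq in ad libitum cortex (70.7 FPKM).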

How the results depend on the processing

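Rbm3 and Cirbp kept their direction and call in all 18 alternatives, with adjusted p of at most 2.56e-04 and 8.75e-04. Rbm14 kept its direction in all 18, and its call ended with equal-sum scaling over all rows (log2 change -0.23, limma adjusted p = 0.127), where microRNA rows at 40330 and 37300 FPKM in ad libitum replicate 2, 32390 FPKM in ad libitum replicate 3 and 17730 FPKM in fasted replicate 2 enter the sums. The same scaling ended the calls of Rbm10, Ybx1, Plcg1, Per1, Taf15, Hnrnpa2b1, Hnrnpa1, Hspa4, Rbm4b, A430046D13Rik and Galnt14. With equal sums over tested genes only, an alternative chosen after seeing the data, Rbm14 kept its call. Leaving out each library gave log2 changes of 0.92 to 1.01 for Rbm3, 0.85 to 1.004 for Cirbp and -0.36 to -0.31 for Rbm14. The replicate block left the log2 changes of Rbm3, Cirbp and Rbm14 at 0.98, 0.94 and -0.34 and changed no call of them. Genes called higher came to 1792 with quantile scaling, 1773 with the replicate block and 1740 with median-ratio scaling, against 1183 as reported. Genes called lower came to 534 with equal-sum scaling over all rows and 2733 with the block, against 2015. The cause was not tested.

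The log2 ratio of Rbm3 to Cirbp was -0.00192 without fasted replicate 4 and up to 0.0988 in the other omissions. Among neighbours that passed nowhere, Wdr13 turned to 0.00174, 0.0986 and 0.0245 with median-ratio, equal-sum and quantile scaling. Ccs turned to 0.0204, 0.110 and 0.0128 with the same scalings and to 0.0122 with equal sums over tested genes, and ran from -0.0647 to 0.0512 when single libraries were left out, with 0.0226 without fasted replicate 4 and 0.0140 without ad libitum replicate 1. Rbm3os and Gm21992 did not reach 1 FPKM in 4 or more libraries and so were not tested. The estimated depth was about 16.6 to 21.9 fragments per FPKM on 1 kb.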
